A study of Mus musculus with 8 samples.

Results

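Heat shock proteins, DnaJ chaperones and a few of their partners were measured in iWAT (inguinal white adipose tissue), a subcutaneous fat pad of the mouse. The set holds every probe whose gene symbol starts with Hsp or Dnaj, without the matrix proteoglycan gene Hspg2, together with Hsf1, Hsf2, Bag3, Calr, Canx, Pdia3, Pdia4 and Pdia6. These were 109 of 55681 probes and 80 of 20972 named genes, and 72 of the 80 had a probe bright enough to test. The 4 control samples came from mice with 2 floxed Senp2 alleles (Senp2flox/flox). The 4 Senp2-aKO samples came from mice with the same alleles plus Adipoq Cre, a recombinase driven by the adiponectin gene and so active in adipocytes. The SENP2 enzyme cuts SUMO, a small protein tag, off its target proteins. All mice started a high-fat diet (58 kcal% fat) at 8 weeks of age, ate it for 12 weeks and were housed at 22 to 24 °C. The series asks whether losing Senp2 in adipocytes turns white fat towards brown fat. The labels describe each sample as coming from a control or a Senp2-aKO mouse but do not number the animals, so p-values measure the spread between these samples, which may in part be technical.

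Chaperones bind unfolded or partly folded proteins and keep them from aggregating. HSP70 proteins do so in cycles of ATP hydrolysis that DnaJ proteins (J proteins) start and nucleotide exchange factors such as BAG3 end. HSP90 proteins take over many signalling clients, small heat shock proteins hold aggregating proteins without using ATP, and calreticulin, calnexin and the disulfide isomerases fold secreted proteins in the endoplasmic reticulum. Heat shock factor 1 switches on the heat-inducible members, and the unfolded protein response switches on those of the endoplasmic reticulum. Adipocytes secrete large amounts of protein such as adiponectin, and small heat shock proteins are abundant in striated muscle.

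Levels are log2 processed signals relative to the 75th percentile of each array, and differences are Senp2-aKO minus control on that log2 scale. A level does not compare one gene with another, because probes differ in brightness. The 8 adipocyte markers were well above background on all 8 arrays. Senp2 lay lower on all 4 Senp2-aKO arrays (2.45 ± 0.06 in controls and 2.18 ± 0.04 in Senp2-aKO, SD, n = 4 per group), with a limma adjusted p = 0.0507, and the labels do not say whether its 1 probe reads the deleted stretch. Controls and Senp2-aKO samples occupied different rows of the slide, so a row effect cannot be told apart from a group effect. The array of Senp2-aKO replicate 2 (aKO 2) stood apart, with B and T lymphocyte marker means of 1.50 and 2.73 against at most -1.08 and 0.47 on the other 7 arrays. It was the lowest Senp2-aKO array in 63.9% of the 72 chaperone genes and in 46.3% of all genes tested. Markers of skeletal muscle differed between the groups: 15 of 20 rose, and their summed log2 level was 5.05 to 7.33 in controls and 9.37 to 10.85 in Senp2-aKO samples. Of these 20 markers, 18 were well above background on every control array. Other cell types moved too: 10 of 12 brown and beige adipocyte markers rose (list means of 0.15 to 0.81 in controls and 2.63 to 3.77 in Senp2-aKO samples), as did 2 of 3 epithelial, 2 of 6 adipose progenitor and 1 of 8 macrophage markers, while 1 of 8 adipocyte and 1 of 6 smooth muscle markers fell. What part any of these cell types has in the chaperone differences was not tested, and in whole tissue fewer cells and less RNA per cell cannot be told apart.

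Of the 72 chaperone genes tested, 7 rose, 5 fell and 60 did not pass in limma at an adjusted p under 0.05. The share that passed was 16.7%, and among all 14730 genes tested it was 14.4%, so the chaperones as a set passed about as often as any genes. The median log2 difference was 0.01 for the chaperones and -0.02 for all genes. At a limma p under 0.05 before adjustment 13 of the 72 were higher and 7 lower. Among all 14730 genes 2171 were higher and 2586 lower at that threshold. The genes that rose were Hsp90aa1, Hsp90b1, Bag3, Hspb3, Hspb6, Dnajb3 and Dnajc28 (9.72% of the set, against 7.29% of all genes). Those that fell were Hspa14, Hspa12a, Dnajc1, Dnajc16 and Dnajb13 (6.94%, against 7.12%). Only Hspb3 and Dnajb3 differed by at least 2-fold among the 12, and 729 of all 14730 genes passed with such a difference. Hspb3 entered the test only through the group in which it is high, so its place among the risers was favoured beforehand. Under normexp background the log2 difference of Dnajb3 was 0.79. The groups were fully apart in 18 chaperone genes (25%) and in 26.3% of all genes. The counts moved with single arrays and were 11 higher and 4 lower without aKO 2, and 3 higher and 1 lower without control 1 or without control 3. They were 3 and 2 without control 2, control 4 or aKO 4, 5 and 1 without aKO 1, and 6 and 3 without aKO 3.

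**Figure D1:**
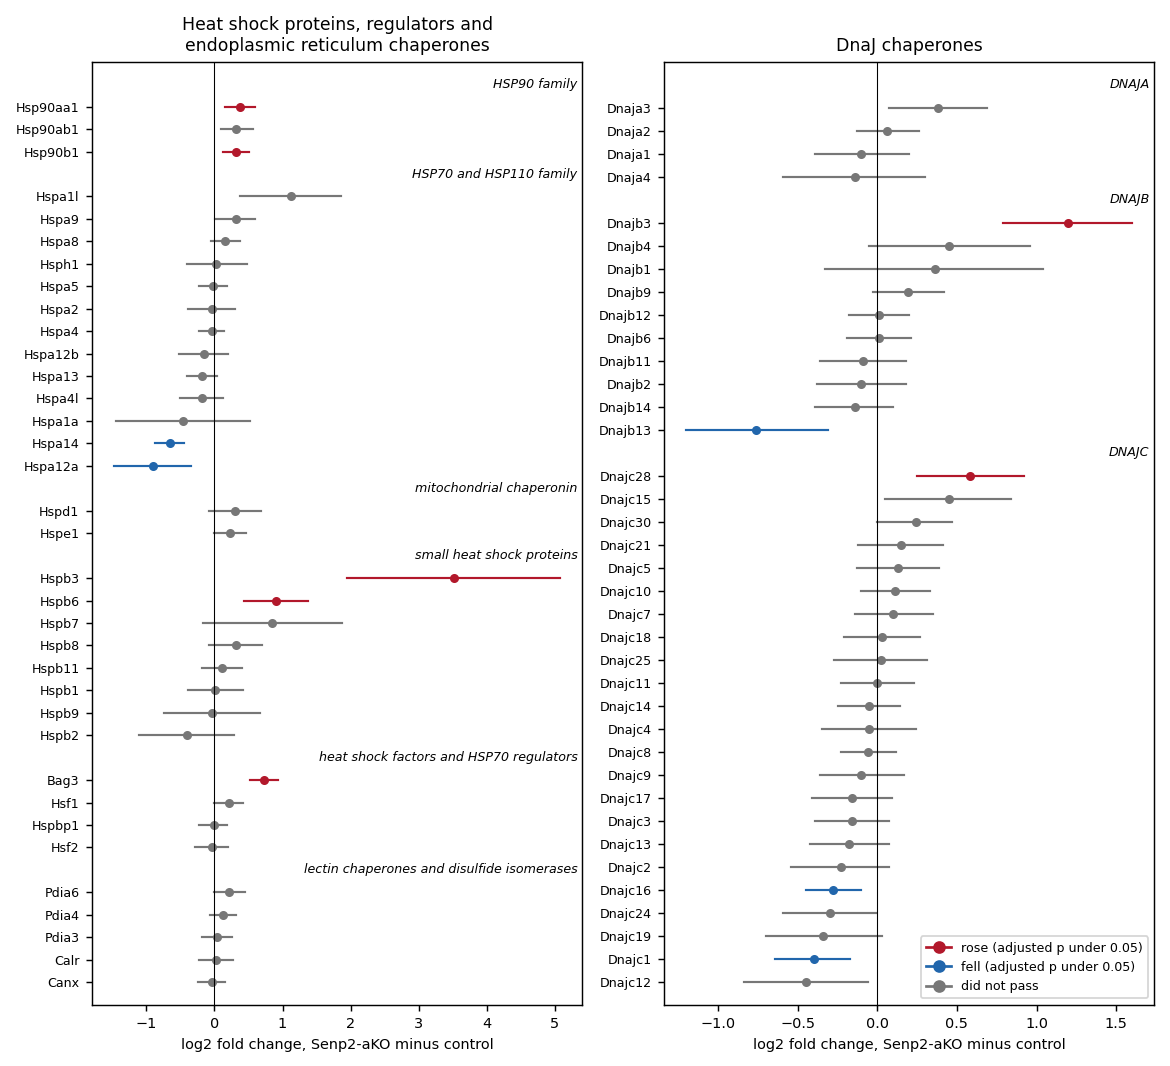
Log2 fold changes (points) with 95% intervals (lines) from limma for the 72 chaperone genes tested, ordered by family, with 4 arrays per group. The horizontal axis is Senp2-aKO minus control on the log2 scale and its range differs between the panels; 7 genes rose (red), 5 fell (blue) and 60 did not pass (grey). The control values of Hspb3 are not well above background on any array, so its point and interval are not exact.

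The HSP90 family, of 3 genes, was the one group in which all measured genes lay higher in every Senp2-aKO sample than in every control. So small a family can reach this more easily than a large one. The groups were fully apart in 26.3% of all genes. Hsp90aa1, the heat-inducible cytosolic form, read 5.01, 4.91, 4.97 and 4.87 in the controls and 5.40, 5.26, 5.15 and 5.45 in Senp2-aKO samples. It rose 1.30-fold (95% interval 1.11 to 1.51, n = 4 per group, adjusted p = 0.0360 in limma). Hsp90b1, the form of the endoplasmic reticulum also called GRP94, read 4.98, 5.02, 5.17 and 5.12 in controls and 5.40, 5.29, 5.46 and 5.41 in Senp2-aKO samples, a rise of 1.25-fold (1.09 to 1.43, adjusted p = 0.0412). Hsp90ab1, the constitutive cytosolic form, did not pass (log2 difference 0.32, SE 0.10, adjusted p = 0.0692), although its 4 Senp2-aKO values of 6.87 to 7.19 lay above the control values of 6.66 to 6.82. The groups thus stood apart for each of these 3 genes by small steps. The signs of all 3 stayed positive under the 17 alternatives run, whereas the calls did not: that of Hsp90aa1 was lost on dropping any control, aKO 1 or aKO 4 (0.0803 to 0.0943 after adjustment) and that of Hsp90b1 on dropping any array but aKO 2 (0.0704 to 0.124). Under quantile normalisation Hsp90b1 did not pass (0.0848), and the log2 difference of Hsp90ab1 was 0.09. Neither Hsp90aa1 nor Hsp90b1 passed with the replicate number as a block (limma adjusted p = 0.0949 and 0.0959). The same held without a filter on background (0.0588 and 0.0662). With the skeletal muscle mean as a covariate their log2 differences were 0.47 and 0.11 (0.456 and 0.836). Without aKO 2 all 3 rose, and Hsp90ab1 then had an adjusted p of 0.0255.

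**Figure D2:**
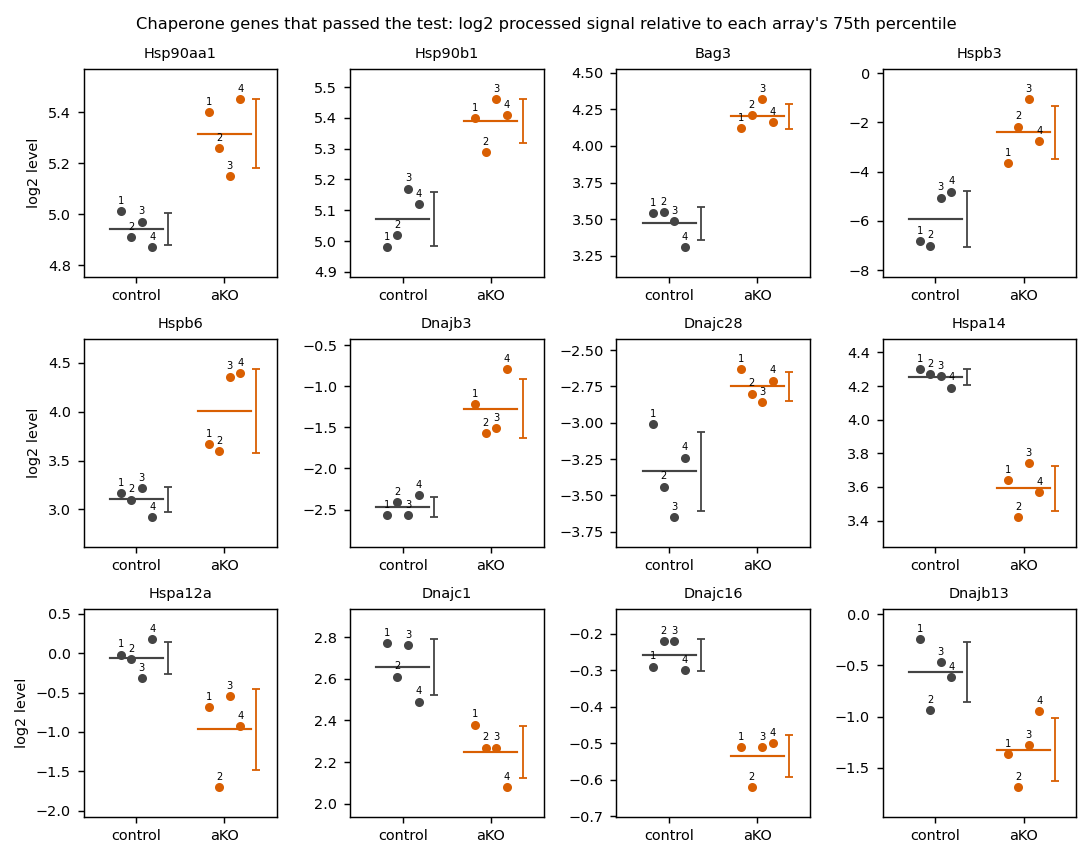
Log2 levels in each array for the 12 chaperone genes that passed, with control arrays in grey and Senp2-aKO arrays in orange, numbered by replicate. Horizontal lines are group means and the bars beside them 1 SD (n = 4 per group), on a vertical axis that differs between genes; the groups do not overlap in any of the 12, and the spread of Senp2-aKO values is widest in Hspb3 (-3.65 to -1.05).

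In the HSP70 family 2 of 13 genes fell, 0 rose in limma and 11 did not pass, with 2 higher and 2 lower at p under 0.05 before adjustment. The share that passed was 15.4%, against 14.4% of all genes. Hspa14, an HSP70 relative that works with the J protein DNAJC2 at the ribosome, read 4.30, 4.27, 4.26 and 4.19 in controls and 3.64, 3.42, 3.74 and 3.57 in Senp2-aKO samples. All 4 Senp2-aKO values lay well below the narrow control range. It fell 1.58-fold (95% interval 1.36 to 1.83, n = 4 per group, adjusted p = 0.00662 in limma), and this call held on leaving out each of the 8 arrays in turn (adjusted p up to 0.0296). Its partner Dnajc2, chosen after its value was seen, did not pass (-0.23, SE 0.13, adjusted p = 0.255). Hspa12a, an atypical and distant HSP70 relative, read -0.02, -0.08, -0.32 and 0.18 in controls and -0.69, -1.70, -0.55 and -0.93 in Senp2-aKO samples. It fell 1.87-fold (1.26 to 2.77, adjusted p = 0.0455). The lowest value was that of aKO 2, without which the gene still passed (0.0240), and the call ended without any control, aKO 1 or aKO 4 (0.0639 to 0.110).

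The main stress-inducible and housekeeping HSP70 genes did not pass. Hspa1a, the classical heat-inducible HSP70, read -1.84, -0.52, -1.45 and -2.14 in controls and -2.22, -2.75, -1.19 and -1.64 in Senp2-aKO samples. The groups overlapped throughout, and each spread over more than 1 log2 unit (log2 difference -0.46, SE 0.43, 95% interval -1.44 to 0.52, limma adjusted p = 0.488). Its near-identical copy Hspa1b had no probe named here, and a probe of one may read both. Hspa8, the constitutive cytosolic HSP70, differed by 0.16 (SE 0.09, adjusted p = 0.262), a value that was -0.06 under quantile normalisation. Hspa5, the HSP70 of the endoplasmic reticulum known as BiP, read 6.03 to 6.15 in controls and 5.92 to 6.17 in Senp2-aKO samples (-0.02, SE 0.09, adjusted p = 0.910). Hspa9, the mitochondrial HSP70, differed by 0.31 (SE 0.13, adjusted p = 0.140), and Hsph1, a nucleotide exchange factor of the HSP110 type, by 0.03 (SE 0.19, adjusted p = 0.923). The HSP70 gene nearest to a call was Hspa1l, a testis form named after its value was seen. It read -4.47 to -4.01 in controls and -3.83, -3.28, -3.03 and -2.14 in Senp2-aKO samples, and these groups did not overlap (1.12, SE 0.32, adjusted p = 0.0538).

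Bag3 had the lowest adjusted p of the chaperone genes. It encodes a nucleotide exchange factor that couples HSP70 and small heat shock proteins to autophagy and is needed for the upkeep of muscle fibres. It read 3.54, 3.55, 3.49 and 3.31 in controls and 4.12, 4.21, 4.32 and 4.16 in Senp2-aKO samples, so that the groups lay well apart and each varied little. It rose 1.66-fold (95% interval 1.43 to 1.92, n = 4 per group, adjusted p = 0.00493 in limma) and passed on leaving out each array in turn (adjusted p up to 0.0213). With the skeletal muscle mean as a covariate, Bag3 had a log2 difference of 0.81 (95% interval 0.31 to 1.32, adjusted p = 0.322), against 0.73 without it. That covariate is itself higher on every Senp2-aKO array, which widens the intervals, and with it 0 of the 72 chaperone genes passed in limma (3 higher and 1 lower at p under 0.05 before adjustment). Hsf1, the main switch of the heat shock response, read 0.84 to 0.99 in controls and 0.94 to 1.24 in Senp2-aKO samples and did not pass (0.21, SE 0.09, adjusted p = 0.162). Hsf2, a second heat shock factor, differed by -0.04 (SE 0.11, adjusted p = 0.828); its sign turned under array weights (0.02), the muscle covariate (0.07) and without aKO 2 (0.01) or aKO 3 (0.02).

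Of the 8 small heat shock proteins tested, 2 rose, 0 fell in limma (0 lower at p under 0.05 before adjustment) and 6 did not pass. The share that passed was 25%, against 14.4% of all genes. Hspb3, a form found mainly in striated muscle, read -6.81, -7.01, -5.06 and -4.81 in controls and -3.65, -2.17, -1.05 and -2.75 in Senp2-aKO samples. It was well above background on all 4 Senp2-aKO arrays and on 0 control arrays, and rose (n = 4 per group, adjusted p = 0.0161 in limma). Its estimated rise was 5.37-fold or more. This figure sets the Senp2-aKO mean against a floor on each control array. That floor is the lowest signal well above background or the probe's own signal, whichever is higher. The figure takes no account of the spread between arrays, and under normexp background the log2 difference was 1.19. Since the probe entered the test through the group in which it is high, a difference was bound to be seen, and the call ended without control 1 (0.0519). The control readings carry no order, because none was above background. The skeletal muscle mean read -1.83, -1.77, 1.15 and 0.40 in the controls and 2.56, 3.17, 3.86 and 3.44 in the Senp2-aKO samples. With this mean as a covariate the log2 difference of Hspb3 was 0.34 (SE 0.81, limma adjusted p = 0.897), against 3.52 without it. Neither difference is exact, because no control reading was above background. The muscle mean is itself higher on every Senp2-aKO array. The part of muscle in the Hspb3 difference was not tested beyond these values.

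Hspb6, also called HSP20 and abundant in smooth and striated muscle, read 3.17, 3.10, 3.22 and 2.92 in controls and 3.67, 3.60, 4.36 and 4.40 in Senp2-aKO samples. It rose 1.88-fold (95% interval 1.35 to 2.60, n = 4 per group, adjusted p = 0.0250 in limma). Its Senp2-aKO values fell into a lower pair (aKO 1 and 2) and a higher pair (aKO 3 and 4), all above the controls. The muscle mean read -1.83, -1.77, 1.15 and 0.40 in the controls, 2.56 and 3.17 in aKO 1 and 2, and 3.86 and 3.44 in aKO 3 and 4. Whether Hspb6 follows it from array to array was not tested. With the muscle mean as a covariate its log2 difference was 0.67 (95% interval -0.42 to 1.75, adjusted p = 0.606), against 0.91 without it. The smooth muscle marker means were 1.54 to 1.89 in controls and 0.94 to 1.52 in Senp2-aKO samples, and the part of smooth muscle in the Hspb6 difference was not tested. The call ended without any 1 of the controls or aKO 4 (0.0563 to 0.0670).

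The other small heat shock proteins did not pass. Hspb7, a heart and muscle form, read -0.66, -2.63, -0.53 and -1.71 in controls and -0.09, -0.67, -0.74 and -0.62 in Senp2-aKO samples, which overlapped (0.85, SE 0.45, limma adjusted p = 0.225). Hspb2, a muscle form, read 3.25 to 3.59 in controls and 3.20, 2.04, 3.61 and 3.16 in Senp2-aKO samples, with aKO 2 far below the rest (-0.41, SE 0.31, adjusted p = 0.391; -0.09 without aKO 2). Hspb8, the partner of BAG3, differed by 0.31 (SE 0.17, adjusted p = 0.248) and rose only when aKO 2 was left out or given a low array weight (adjusted p = 0.0218 and 0.0240). Hspb1, the widespread HSP25, read 6.68 to 6.93 in controls and 6.34 to 7.10 in Senp2-aKO samples (0.01, SE 0.17, adjusted p = 0.963). The part of muscle in Hspb6 and Bag3 was not tested beyond the covariate values given.

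**Figure D3:**
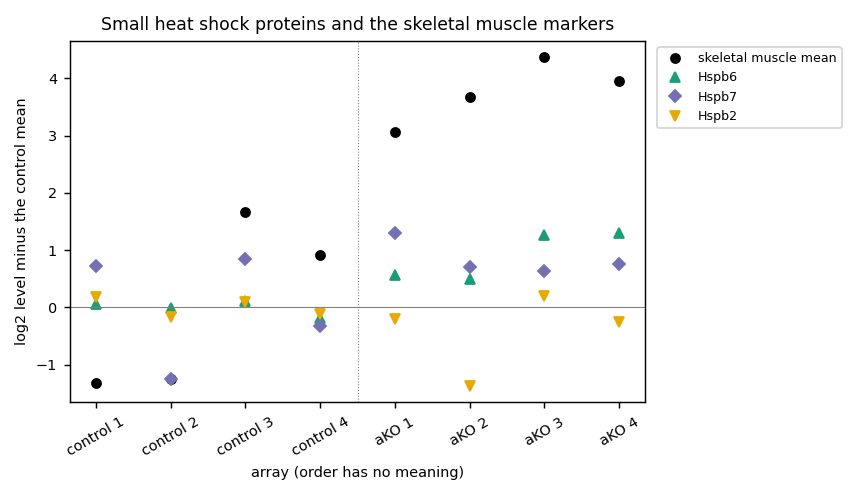
Log2 levels minus the control mean in each of the 8 arrays for Hspb6, Hspb7, Hspb2 and the mean of 20 skeletal muscle markers (circles). The muscle mean and Hspb6 are above their control values in all 4 Senp2-aKO arrays, while Hspb2 has its lowest value in aKO 2; Hspb3 is not drawn, because its controls are not above background.

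The heat shock element, the site that heat shock factors bind, is made of units of GAA in alternating directions. Promoter sequences (RefSeq, GRCm38.p6, 250 bases before to 50 after each start) were at hand for 65 of the 80 genes. A pair of units, GAANNTTC or TTCNNGAA, each of which reads the same on both strands, was found in the promoters of 16 of the 65 genes (24.6%) and in 17.0% of all genes. Of the 14 such genes that were tested 3 rose, Bag3, Hspb3 and Hspb6, and 11 did not pass. Among all genes 7.29% rose, and Hspb3 entered the test only through the group in which it is high, so nothing is read from this count. In Bag3 the pair lies 43 to 50 bases after the start. The stricter run of 3 units, a pair followed by any 2 bases and one more GAA or TTC in alternation, was in 4 of the 65 genes (Hspd1, Hspe1, Hsph1 and Dnajb6) and in 0.662% of all genes. None of these 4 passed, and Hspd1 and Hspe1 share theirs, since they lie head to head. The 4 stretches that follow show one gene that rose (Hspb3) and 3 classical heat-inducible genes that did not pass, with the units in capitals. Hspb3 lies on the minus strand of chr13:113663858-113663926, Hspb1 on the plus strand of chr5:135887767-135887864, Hspa1a on the minus strand of chr17:34972218-34972295 and Hspe1 on the plus strand of chr1:55088024-55088111.
Hspb3: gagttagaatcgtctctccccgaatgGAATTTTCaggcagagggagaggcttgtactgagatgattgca
Hspb1: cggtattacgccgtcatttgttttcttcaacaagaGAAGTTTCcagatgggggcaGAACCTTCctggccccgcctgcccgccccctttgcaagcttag
Hspa1a: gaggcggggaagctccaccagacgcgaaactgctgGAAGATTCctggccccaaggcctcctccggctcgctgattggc
Hspe1: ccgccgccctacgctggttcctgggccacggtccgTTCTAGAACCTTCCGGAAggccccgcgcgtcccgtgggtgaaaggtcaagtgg

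Hspd1 (HSP60) and Hspe1 (HSP10) form the mitochondrial chaperonin, a closed chamber in which imported proteins fold. Hspd1 read 5.06, 5.19, 5.03 and 5.27 in controls and 5.70, 5.0, 5.38 and 5.68 in Senp2-aKO samples. Only aKO 2 lay among or below the controls. Hspd1 did not pass (0.30, SE 0.17, n = 4 per group, adjusted p = 0.241 in limma) but rose without aKO 2 (0.45, adjusted p = 0.0332). Hspe1 read 4.81 to 5.01 in controls and 5.26, 4.94, 5.06 and 5.28 in Senp2-aKO samples, again with aKO 2 lowest of the latter, and did not pass (0.23, SE 0.10, adjusted p = 0.171, and 0.0579 without aKO 2). With array weights, which count aKO 2 least, both rose (0.0221 and 0.0311). At an unadjusted p under 0.05 neither passed.

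J proteins carry the domain that makes HSP70 hydrolyse ATP, and the 3 classes differ in what else they carry. Among the DNAJA genes 0 of 4 passed in limma (14.4% of all genes did), with 1 higher and 0 lower at p under 0.05 before adjustment. Dnaja1, a cytosolic partner of HSP70, read 4.92 to 5.05 in controls and 5.04, 4.53, 5.04 and 4.96 in Senp2-aKO samples, with aKO 2 alone below (-0.10, SE 0.13, adjusted p = 0.648). The higher one was Dnaja3, a mitochondrial J protein named after its value was seen, whose Senp2-aKO values of 3.44 to 3.83 lay above the controls at 2.97 to 3.42 (0.38, SE 0.14, adjusted p = 0.0969).

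Among the DNAJB genes 1 of 10 rose, 1 fell and 8 did not pass (20% passed, against 14.4% of all genes). Dnajb3, a J protein known mostly from testis, read -2.57, -2.41, -2.57 and -2.32 in controls and -1.22, -1.57, -1.51 and -0.79 in Senp2-aKO samples. It rose 2.29-fold (95% interval 1.73 to 3.03, n = 4 per group, adjusted p = 0.00738 in limma) and passed without each array in turn (adjusted p up to 0.0298). Dnajb13, a part of the radial spokes of cilia and sperm tails, read -0.24, -0.94, -0.47 and -0.61 in controls and -1.37, -1.69, -1.28 and -0.95 in Senp2-aKO samples. Control 2 and aKO 4 nearly met. It fell 1.69-fold (1.24 to 2.31, adjusted p = 0.0376), and the call ended without control 1, 3 or 4 or aKO 1, 2 or 3 (0.0517 to 0.100). Dnajb1, the main J partner of heat-induced HSP70, read 4.20 to 4.64 in controls and 4.15, 4.48, 5.65 and 4.77 in Senp2-aKO samples. Only aKO 3 stood well above the controls, and Dnajb1 did not pass (0.36, SE 0.30, adjusted p = 0.445; 0.06 without aKO 3). Dnajb9, a BiP partner induced by the unfolded protein response, differed by 0.19 (SE 0.10, adjusted p = 0.216).

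Of 23 DNAJC genes tested, 1 rose, 2 fell and 20 did not pass, with values from -0.45 to 0.45 among the latter. The share that passed was 13%, against 14.4% of all genes. Dnajc28 read -3.01, -3.44, -3.65 and -3.24 in controls and -2.63, -2.80, -2.86 and -2.71 in Senp2-aKO samples, and rose 1.50-fold (95% interval 1.19 to 1.89, n = 4 per group, adjusted p = 0.0333 in limma). Its call ended under quantile normalisation (0.0523) and without control 2, 3 or 4, aKO 1 or aKO 4 (0.0642 to 0.0858). Dnajc1, a J protein of the endoplasmic reticulum membrane that binds BiP and ribosomes, read 2.77, 2.61, 2.76 and 2.49 in controls and 2.38, 2.27, 2.27 and 2.08 in Senp2-aKO samples. It fell 1.32-fold (1.12 to 1.56, adjusted p = 0.0374). Dnajc16, another membrane J protein, read -0.29, -0.22, -0.22 and -0.30 in controls and -0.51, -0.62, -0.51 and -0.50 in Senp2-aKO samples. Its values were nearly constant within each group, and it fell 1.21-fold (1.07 to 1.37, adjusted p = 0.0475). The Dnajc1 call ended without control 1, 2 or 3 or aKO 1, 3 or 4 (0.0534 to 0.111), and that of Dnajc16 without any array but aKO 2 (0.0654 to 0.122). Dnajc3, an inhibitor of the eIF2α kinases in the endoplasmic reticulum, differed by -0.16 (SE 0.10, adjusted p = 0.305).

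Second probes were kept for 20 of the 80 genes, 27 probes in all. None of the 12 genes that passed had one. In limma over all 30508 kept probes, 0 of the 27 passed, against 9.83% of all kept probes. Of the 12 genes, Hsp90aa1, Hsp90b1, Hspa12a, Dnajc1 and Dnajc16 did not pass in that fit either (adjusted p = 0.0535 to 0.0752). The sign was that of the gene's main probe in 19 of the 27. The widest disagreement, named after it was seen, was in Dnajc19, a J protein of the mitochondrial import motor. Its main probe lay lower in Senp2-aKO samples, though control 2 and aKO 4 both read 3.71 (-0.34, SE 0.16, adjusted p = 0.210) and its second probe had a difference of 0.49 (SE 0.13, adjusted p = 0.0517). The 8 genes not tested were Dnajb7, Dnajc5g and Hspbap1 (well above background on 0 arrays), Dnajb8 and Dnajc22 (1 array each), Dnajc5b (2 arrays), Dnajc6 (3 arrays) and Dnajc27, whose probe had 6 such arrays but lacked a usable spot on another.

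The lectin chaperones and disulfide isomerases of the endoplasmic reticulum did not pass, 0 of 5 in limma and 0 at p under 0.05 before adjustment. Calr, the calcium-binding lectin calreticulin, read 4.38 to 4.64 in controls and 4.33 to 4.66 in Senp2-aKO samples (0.02, SE 0.11, adjusted p = 0.932, n = 4 per group). Its membrane-bound relative Canx differed by -0.04 (SE 0.09, adjusted p = 0.769), and Pdia3, the isomerase that works with both, by 0.04 (SE 0.10, adjusted p = 0.819). For Canx the 95% interval of the log2 difference ran from -0.24 to 0.16. Pdia6 had 5.55 to 5.76 in controls and 5.71 to 6.04 in Senp2-aKO samples (0.22, SE 0.10, adjusted p = 0.170). The values of Pdia4 were 1.77 to 1.83 in controls and 1.86 to 2.08 in Senp2-aKO samples, which did not overlap (0.13, SE 0.08, adjusted p = 0.316).

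The endoplasmic reticulum stress element is the site through which the factors ATF6 and, with partners, XBP1 switch on chaperone genes. In its strict form, CCAAT and CCACG with any 9 bases between them, searched on both strands, it was in the promoters of 6 of the 65 genes (9.23%) and in 0.137% of all genes. These were Hsp90b1, which holds it at 2 places, Hspa5, Calr, Canx, Pdia6 and Dnajc3. Their stretches are shown because these 6 share the element. Of the 6, 1 rose and 5 did not pass, with a median log2 difference of 0.00. Among all genes 7.29% rose, and nothing is read from this count. Capitals mark the element, which in Calr and at the second place in Hsp90b1 is read on the other strand (CGTGG, then ATTGG). Hsp90b1 lies on the minus strand of chr10:86705498-86705691, Hspa5 on the plus strand of chr2:34771990-34772078 and Calr on the minus strand of chr8:84847040-84847128 (GRCm38.p6). Canx lies on the minus strand of chr11:50325765-50325853, Pdia6 on the plus strand of chr12:17266456-17266544 and Dnajc3 on the plus strand of chr14:118937792-118937880.
Hsp90b1: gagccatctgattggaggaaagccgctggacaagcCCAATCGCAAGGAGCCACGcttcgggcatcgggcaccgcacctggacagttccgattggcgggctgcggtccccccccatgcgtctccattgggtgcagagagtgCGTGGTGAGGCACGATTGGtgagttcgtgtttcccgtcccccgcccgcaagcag
Hspa5: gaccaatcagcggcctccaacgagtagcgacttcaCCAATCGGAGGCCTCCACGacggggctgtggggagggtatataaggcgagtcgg
Calr: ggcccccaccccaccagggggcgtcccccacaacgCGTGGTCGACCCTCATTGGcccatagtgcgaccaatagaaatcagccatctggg
Canx: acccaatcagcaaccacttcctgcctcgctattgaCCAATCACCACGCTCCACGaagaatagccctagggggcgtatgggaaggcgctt
Pdia6: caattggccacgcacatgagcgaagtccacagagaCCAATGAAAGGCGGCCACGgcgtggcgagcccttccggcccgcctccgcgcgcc
Dnajc3: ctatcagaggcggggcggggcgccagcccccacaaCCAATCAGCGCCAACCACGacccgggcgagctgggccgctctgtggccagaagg

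**Figure D4:**
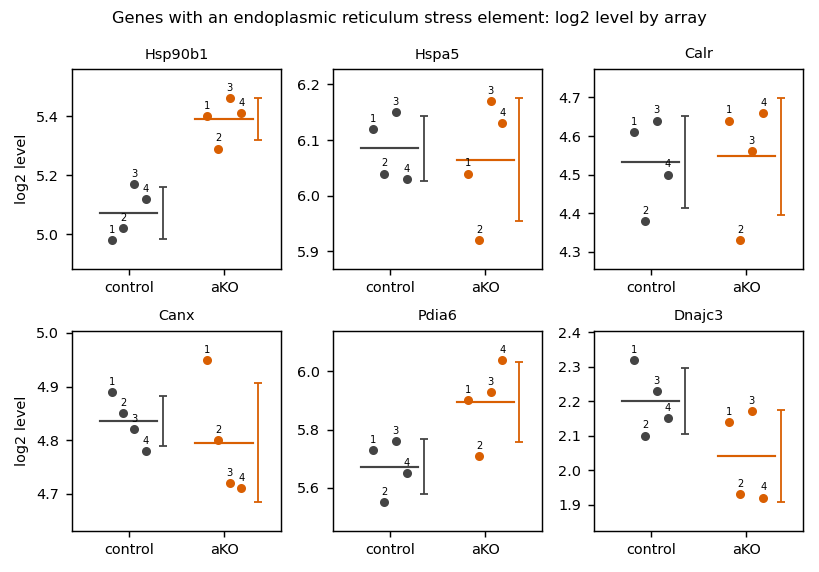
Log2 levels by array for the 6 genes whose promoter holds the endoplasmic reticulum stress element, with controls in grey and Senp2-aKO arrays in orange, numbered by replicate; lines are means and bars 1 SD (n = 4 per group). The groups stand apart in Hsp90b1 and overlap in the other 5, on a vertical axis that differs between genes.

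Other genes of protein folding and stress gave the wider setting. Of 20 co-chaperones and HSP90 partners tested, 2 rose and 0 fell in limma (4 higher and 0 lower at p under 0.05 before adjustment). The share that passed was 10%, against 14.4% of all genes. Fkbp5, an HSP90-bound immunophilin and a known glucocorticoid target, read 2.40, 2.91, 2.37 and 3.31 in controls and 5.68, 5.81, 4.35 and 5.27 in Senp2-aKO samples (log2 difference 2.53, SE 0.35, adjusted p = 0.00639). Ppid, another HSP90-bound immunophilin, read 2.53 to 2.62 and 2.94 to 3.10 (0.43, SE 0.08, adjusted p = 0.0139). Cryab, the lens and muscle relative of the small heat shock proteins, differed by -0.46 (SE 0.30, adjusted p = 0.323) with aKO 2 lowest at 4.90.

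Subunits of the cytosolic chaperonin CCT and of prefoldin differed by small steps, with a median of 0.16. In limma 0 of 14 passed (3 higher and 1 lower at p under 0.05 before adjustment). Of the mitochondrial chaperones and proteases 0 of 11 passed in limma (1 higher and 0 lower before adjustment), and their median was 0.16. The difference was above 0 in 13 of the 14 and in 10 of the 11. Among all genes it was above 0 in 47.3%, with a median of -0.02. Of all 14730 genes 14.4% passed in limma, and before adjustment 2171 were higher and 2586 lower at p under 0.05. Whether either list shifted as a whole was not tested. Of 23 folding and degradation genes of the endoplasmic reticulum 0 passed, 0 were higher and 6 lower at p under 0.05 before adjustment, and the groups did not overlap in 8 (34.8%, against 26.3% of all genes), all lower in Senp2-aKO. Under quantile normalisation 3 of the 23 fell, and without aKO 2 the number was 2. Among all 14730 genes 1443 and 1472 fell under these settings. Serpinh1, the collagen chaperone HSP47, had the lowest value of these (-0.74, SE 0.28, adjusted p = 0.107), and Hyou1, the HSP70 relative that serves BiP, differed by 0.23 (SE 0.14, adjusted p = 0.305).

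Regulators of the unfolded protein and integrated stress responses moved in both directions, 3 up and 3 down of 17 tested (35.3%, against 14.4% of all genes). Xbp1, the transcription factor activated by splicing in endoplasmic reticulum stress, read 5.52 to 5.56 in controls and 5.76 to 6.02 in Senp2-aKO samples and rose (0.36, SE 0.09, n = 4 per group, adjusted p = 0.0310 in limma). The transcription factor Atf4 (0.37, SE 0.10) and Ppp1r15b, which helps to reverse eIF2α phosphorylation (0.68, SE 0.10), rose as well. Eif2ak3, the kinase PERK (-0.43, SE 0.08), Eif2ak2, the double-stranded RNA kinase (-0.43, SE 0.12), and Trib3, a stress-induced pseudokinase (-1.04, SE 0.20), fell. In the list of other heat shock factors, stress ubiquitin and stress genes 1 of 8 fell, Nupr1 (-1.08, SE 0.25, adjusted p = 0.0283), and 7 did not pass. Under quantile normalisation 1 regulator rose and 3 fell, and with the muscle mean as a covariate 0 of the 17 passed.

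Across the alternatives, Bag3, Hspa14 and Dnajb3 were the chaperone genes that passed under each setting except the muscle covariate (adjusted p = 0.322, 0.367 and 0.358). The remaining 9 each lost the call under at least 1 further setting. With the replicate block Hsp90aa1, Hsp90b1, Hspb6, Hspa12a, Dnajc1 and Dnajc16 lost it. Without a filter on background Hsp90aa1, Hsp90b1, Hspa12a, Dnajb13, Dnajc1, Dnajc16 and Dnajc28 did.

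**Figure D5:**
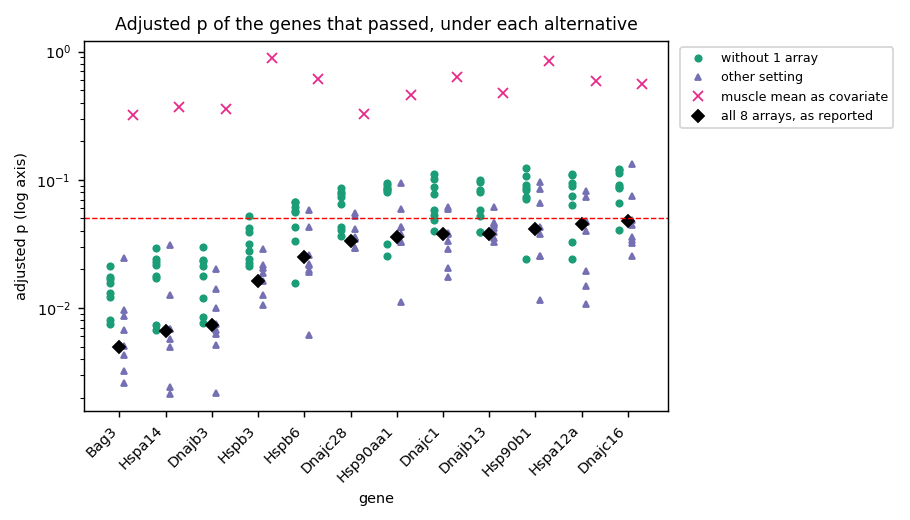
Adjusted p from limma (log axis) for the 12 chaperone genes that passed, as reported (diamonds), on leaving out 1 array (circles), under other settings (triangles) and with the skeletal muscle mean as a covariate (crosses). The dashed line is the threshold of 0.05; Bag3, Hspa14 and Dnajb3 lie below it in all but the covariate setting.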

How the data were processed

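Total RNA (0.5 µg per sample, labelled with Cy3) was hybridised to 1-colour Agilent mouse arrays, 1 per sample. Per the submitters' processing notes and the file headers, Agilent Feature Extraction 11.5.1 read the scans. Deposited intensity values were used in 2 forms, spot medians with local background and processed signals (background-subtracted and detrended), neither scaled between arrays. The authors' deposited matrix of 8 unlabelled columns was not used here. No spot was saturated.

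Log2 processed signals were set relative to each array's 75th percentile, and spots of a probe were averaged without outlier spots. Probes well above background on at least 4 of 8 arrays were kept. Names came from RefSeq accessions (27656 probes named, 28025 not), and the brightest probe stood for its gene. limma 3.58.1 in R 4.3.3 compared the groups over all 14730 genes, with Benjamini-Hochberg adjustment; the fit was checked on simulated data. The number of arrays limits the precision. Named were all genes that passed, a set list of well-known members (Hspa1b has no probe named here), and others where said. Members, lists and tests were chosen with earlier results of these data known. Alternatives were quantile normalisation, normexp background (offset 50), other filters, the mean of probes, array weights, the replicate number as a block, marker covariates and leaving out each array.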

Additional observations from a re-analysis of the deposited data

Results flagged for a closer look

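Outlying arrays were looked for in each group of 4 by Dixon's test, over 70 groups of the named genes, of which 2 stood out, both on aKO 2. Chance alone gives about 1 in 20. Dnaja1 read 4.53 on aKO 2 against 4.96 to 5.04 on the other 3 Senp2-aKO arrays. Dnajc16 read -0.62 on aKO 2 against -0.51 to -0.50 on the others, a small gap in a narrow group, and its call held without that array (limma adjusted p = 0.0407).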

How the results depend on the processing

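Against 7 higher and 5 lower chaperone genes, no filter on background gave 4 and 1, array weights 16 higher, and the skeletal muscle covariate 0 and 0. Leaving out 1 array gave 3 to 11 higher and 1 to 4 lower, while 4.85% to 19.2% of all genes passed. The labels do not say whether the replicate numbers pair the samples. Correlations of same-numbered deviations ran from -0.08 to 0.14, 1 of 4 best with its own number, and cannot settle this. With the replicate block the counts were 4 and 2. Among all genes the block called 725 higher and 569 lower, array weights 1831 and 1932, no filter 848 and 689, and the muscle covariate 1 and 0, against 1074 and 1049. The cause was not tested. Signs turned only in genes that did not pass. Log2 differences were 0.00 for Calr, -0.06 for Hspa8 and -0.20 for Hspb1 under quantile normalisation. Under normexp they were -0.02 for Calr, -0.04 for Hspb1, -0.02 for Hsph1 and -0.06 for Pdia3. Dnaja1 had 0.08 with the mean of its probes, and with array weights Hsf2 and Hspa5 had 0.02 each. With the muscle covariate values were -0.09 for Calr, 0.12 for Canx, 0.01 for Dnaja1, -0.09 for Dnajb9, 0.07 for Hsf2, -0.26 for Hsph1 and -0.17 for Pdia3. On leaving out 1 array they ran from -0.03 to 0.09 for Calr, -0.15 to 0.03 for Dnaja1, -0.11 to 0.02 for Hsf2 and -0.05 to 0.03 for Hspa5. They ran from -0.06 to 0.19 for Hspb1, -0.08 to 0.21 for Hsph1 and 0.00 to 0.09 for Pdia3. Signal over background limits Hspb3, with 0 control arrays well above it.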
